A study of Sus scrofa with 3 samples.

Results

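The genes of miR-21, miR-22, miR-34a, miR-34b and miR-34c, which are widely studied in cellular stress and senescence, were followed through pig liver development. They were chosen by name, as every line of the deposited tables whose hairpin bears 1 of these 5 names, out of 677 hairpin names with a read. Their 10 mature arms were among 966 mature miRNAs with a read, and 6 of the 10 had a mean of at least 10 counts per 1000000 miRNA reads (CPM), the level required for a comparison, as did 317 miRNAs in all. The tissue was liver from males of the Jinhua breed of China, and its small RNA was sequenced at embryonic day 90 (E90), postnatal day 30 (P30d) and postnatal year 7 (P7y). No group carried a treatment or a genetic change. Each stage has 3 pigs in the labels but a single library, and pooling of RNA is not mentioned. No spread between animals could therefore be measured, and every comparison below is between single libraries.

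The E90 library held 9243601 reads of known miRNAs, the P30d library 3622993 and the P7y library 9920207. The limit for an arm with no read, set at 3 reads, was 0.325 CPM in the E90 library, 0.828 in the P30d library and 0.302 in the P7y library, so the P30d library resolved rare arms least well. All intervals are at 95%. They and these limits describe counting error alone, and PCR copies of 1 molecule count as separate reads. The 4 hepatocyte miRNAs on the marker list, miR-122-5p, miR-192-5p, miR-194a-5p and miR-148a-3p, together held 341339, 379509 and 303634 CPM at E90, P30d and P7y. Within that sum miR-122-5p was at 128016, 213800 and 37870 CPM and miR-148a-3p at 75920, 41821 and 95666 CPM. In bulk tissue, fewer cells of a type and less RNA per cell cannot be told apart.

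A miRNA is cut from a hairpin that yields a 5p and a 3p strand, of which usually 1 is loaded into Argonaute and represses messages that pair with its seed, bases 2 to 8. In liver, miR-21 is known for its rise in regeneration, fibrosis and cancer, and for repressing PDCD4. miR-22 is known for repressing regulators of the cell cycle and of chromatin, and its forced expression drives cultured cells into senescence. The miR-34 genes are direct transcriptional targets of p53, and their products repress cyclin-dependent kinases, MET and BCL2. miR-34a has its own locus and is expressed in most tissues, whereas miR-34b and miR-34c share a primary transcript that is best known from testis and from airway cells with many cilia.

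The sequences below are the representative reads, the most frequent read of an arm in the authors' tables, shown because the seed defines which members could act on the same messages. Seeds are in capitals. The first miR-21-5p form led at E90 and P7y and the second, 1 base shorter at its 3′ end, led at P30d.
miR-21-5p, 23 nt: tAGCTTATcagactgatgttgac
miR-21-5p, 22 nt: tAGCTTATcagactgatgttga
miR-21-3p: cAACAGCAgtcgatgggctgt
miR-22-3p: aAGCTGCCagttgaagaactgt
miR-22-5p, E90: aGTTCTTCagtggcaagcttta
miR-34a-5p: tGGCAGTGtcttagctggttgt
miR-34b-5p, E90 and P30d: aGGCAGTGtaattagctgattgt
miR-34b-5p, P7y: tAGGCAGTgtaattagctgattgt
miR-34c-5p: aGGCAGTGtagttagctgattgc
miR-34b-3p, P30d: aATCACTAattccactgccatc
miR-34b-3p, P7y: aTCACTAAttccactgccatc
miR-34c-3p: aATCACTAaccacacggccagg
The 5p arms of miR-34a, miR-34c and, at E90 and P30d, miR-34b shared the seed GGCAGTG. Aligned at the seed without gaps, miR-34b-5p and miR-34c-5p had 20 of 22 bases in common, and miR-34a-5p had 11 of 21 in common with either. A count without gaps understates the likeness of miR-34a-5p. The stretch ttagctg occurs in the 5p arms of miR-34a, miR-34b and miR-34c, but lies 1 base closer to the seed in miR-34a-5p. The 3p arms of miR-34b and miR-34c shared the seed ATCACTA and 15 of 21 bases. At P7y the representative read of miR-34b-5p began 1 base earlier and that of miR-34b-3p 1 base later, which shifted their seeds, but they rested on 7 and 20 copies. The miR-34b-3p reads were listed under a horse name, from which they differed by C10T, counted from 1 at the 5′ end of the named sequence.

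Coordinates are those of the deposited tables, on Sscrofa10.2. The miR-21 hairpin lay at chr12:37340385-37340476 on the plus strand, and its 92 bases show both arms, in capitals, in 1 stem.
miR-21 hairpin: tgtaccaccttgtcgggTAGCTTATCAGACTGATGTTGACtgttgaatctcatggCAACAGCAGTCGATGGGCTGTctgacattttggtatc
The miR-34b hairpin lay at chr9:44167411-44167516 and the miR-34c hairpin at chr9:44166853-44166960, both on the minus strand and 450 bases apart. Chromosomes were read from the other hairpins that share the tables' sequence identifier, since 14 of 14 names for the miR-21 identifier and 7 of 8 for the miR-34b and miR-34c identifier gave the same chromosome. Reads of miR-22 and miR-34a were listed with hairpins that the authors did not place on this build, so no position is given for them. Gene models of this build were not used here, so exon or intron positions were not analysed here. None of the 2044 hairpins that the authors predicted without a known miRNA carried the seed of a member, and none lay within 10000 bases of a placed member.

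The members differed in level by several orders of magnitude. Their summed share of miRNA reads was 1.66%, 3.26% and 2.16% in the E90, P30d and P7y libraries, nearly all of it miR-21-5p and miR-22-3p. The other arms included 4 with few reads in all 3 libraries. miR-34a-3p had 0 reads at E90, 1 at P30d, then 7 at P7y. miR-34b-5p had 2, 1 and 7 reads, and miR-34c-3p had 4, 3 and 5. miR-34b-3p had 3 reads at E90, 2 at P30d, then 36 at P7y. These 4 arms fell under the filter and were not counted in any comparison.

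**Figure D1:**
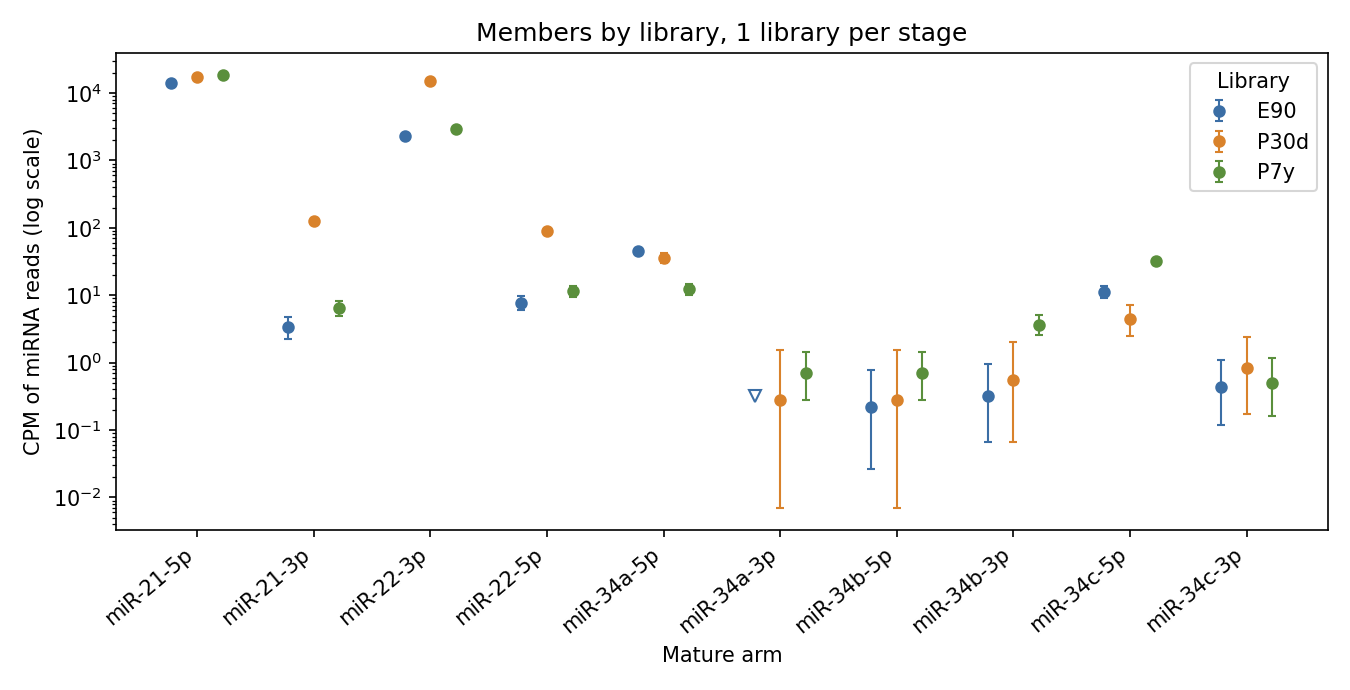
Level of each member arm in CPM, on a log axis, in the E90, P30d and P7y libraries, with exact 95% counting intervals, and an open triangle at the limit for a count of 0. miR-21-5p stayed between 14245 and 18625 CPM, miR-22-3p peaked at P30d at 15255 CPM, and the miR-34 arms lay below 46 CPM.

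miR-21-5p, the strand known to act on PDCD4, was the most read member in every library. It had 131675 reads at E90, 61779 at P30d, then 184761 at P7y, or 14245 (14169 to 14322), 17052 (16919 to 17186) and 18625 (18541 to 18709) CPM. The 3 intervals did not overlap, and the level was lowest at E90 and highest at P7y, where it ranked as the 11th most read miRNA, after the 17th place at E90 and the 12th at P30d. The steps were small: the log2 ratio of CPM was 0.26 from E90 to P30d, 0.13 from P30d to P7y and 0.39 from E90 to P7y, a 1.31-fold difference over the whole span. None reached the 2-fold limit that, with an interval off 0, was required to call a miRNA higher or lower. The level at P7y depended on how libraries were scaled, because the median log2 ratio of all 317 miRNAs was -1.37 from P30d to P7y and -1.10 from E90 to P7y. With TMM factors, which assume that most miRNAs keep their level, miR-21-5p was called higher at P7y, with a log2 ratio of 1.22 against P30d and 1.41 against E90.

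The passenger strand of the same hairpin behaved differently. miR-21-3p had 31 reads at E90, 455 at P30d, then 64 at P7y, or 3.35 (2.28 to 4.76), 125.6 (114 to 138) and 6.45 (4.97 to 8.24) CPM. P30d stood far above the other libraries, whose intervals did not overlap each other. The level was 37.4-fold higher at P30d than at E90, with a log2 ratio of 5.23 (4.70 to 5.80). From P30d to P7y it fell by 4.28 on the log2 scale (-4.68 to -3.90). Less the median of all miRNAs this ratio came to -2.91, and with TMM factors it was called at -3.19. From E90 to P7y the log2 ratio was 0.94 (0.30 to 1.61), short of a call. It passed the 2-fold limit with TMM factors, at 1.97.

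Because both strands come from 1 hairpin in 1 library, their ratio does not depend on how libraries are scaled. Of the miR-21 reads the 3p arm held 0.0235% (0.0160 to 0.0334) at E90, 0.731% (0.666 to 0.801) at P30d and 0.0346% (0.0267 to 0.0442) at P7y. The balance of 5p over 3p therefore shifted toward the 3p arm from E90 to P30d, by -4.95 on the log2 scale (-5.54 to -4.44), and back by 4.40 (4.03 to 4.81) from P30d to P7y. From E90 to P7y it differed by -0.55 (-1.22 to 0.08), an interval that includes 0. Shifts of 2-fold or more were common in these libraries: of the 168 hairpins that had 50 reads or more at every stage, 59.5% shifted from E90 to P30d, 64.9% from P30d to P7y and 45.8% from E90 to P7y. Over the same hairpins, the less read arm gained on the other by a median log2 value of 0.67 from E90 to P30d and lost by 1.09 from P30d to P7y (median change -1.09). miR-21 thus moved in the direction of the median hairpin in both steps.

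**Figure D2:**
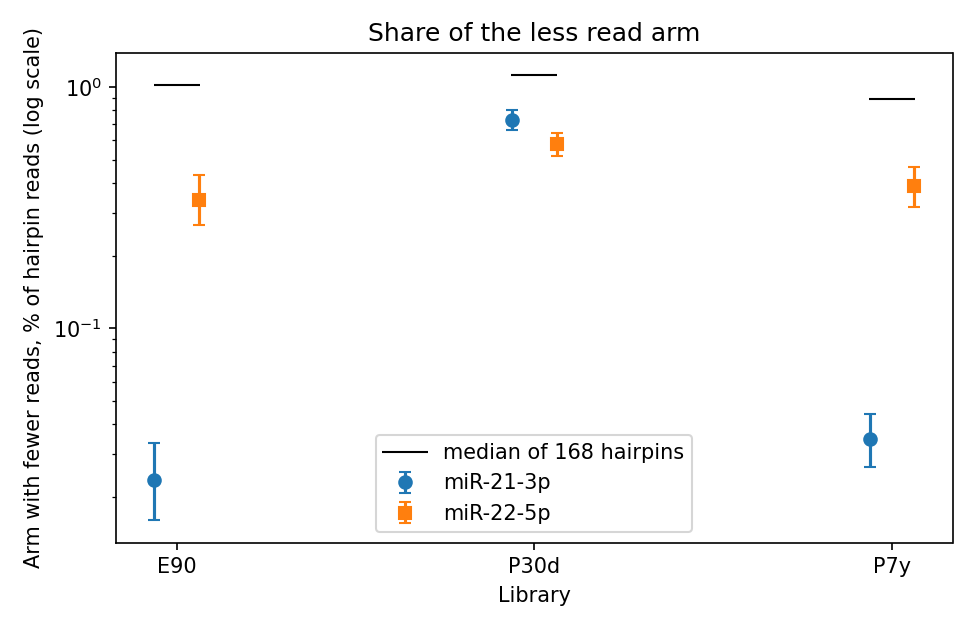
Share of the less read arm, as a percent of the reads of its hairpin on a log axis, in each library for miR-21-3p and miR-22-5p, with exact 95% intervals, and the median of 168 hairpins as a bar. miR-21-3p went from 0.0235% at E90 to 0.731% at P30d and 0.0346% at P7y, while miR-22-5p stayed between 0.341% and 0.578%.

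The ends of miR-21-5p also varied. Of the arm's reads, the representative read held 50.8%, 45.3% and 42.8% in the E90, P30d and P7y libraries, against medians of 57.1%, 51.3% and 52.2% over 239 miRNAs. The 23 nt form with a final c led at E90 and P7y, and the 22 nt form, which matches the named pig sequence, led at P30d. All 3 representative reads began at the same base, so the seed was the same. miR-590-5p, the other miRNA listed with the seed AGCTTAT, had 79, 20 and 12 reads at E90, P30d and P7y. For this seed, all reads listed with a representative read were counted under the seed of that read. On that count miR-21-5p held at least 99.94% of the reads in each library.

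miR-22 peaked at P30d on both strands. miR-22-3p, the strand that carries the known repression of cell cycle and chromatin regulators, had 21017 reads at E90, 55268 at P30d, then 29050 at P7y. Its level was 2274 (2243 to 2305) CPM at E90, 15255 (15129 to 15381) at P30d, then 2928 (2895 to 2962) at P7y. E90 and P7y lay close together and P30d far above them, and its place among all miRNAs went from 49th to 15th and then to 29th. It was 6.71-fold higher at P30d than at E90, with a log2 ratio of 2.75 (2.72 to 2.77). From P30d to P7y it fell by 2.38 on the log2 scale (-2.40 to -2.36), to a level 1.29-fold that at E90 (log2 ratio 0.37). That last difference was called with TMM factors, at 1.39, and with DESeq2 factors, at 1.45. The ratio from P30d to P7y, less the median of all miRNAs, came to -1.01, and with TMM factors it was called at -1.29.

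The minor strand followed the major one. miR-22-5p had 72 reads at E90, 321 at P30d, then 113 at P7y, or 7.79 (6.09 to 9.81), 88.6 (79.2 to 98.8) and 11.4 (9.39 to 13.7) CPM. The log2 ratio was 3.51 (3.13 to 3.90) from E90 to P30d and -2.96 (-3.28 to -2.65) from P30d to P7y. From E90 to P7y it was 0.55 (0.11 to 0.995), again short of a call. The ratio from P30d to P7y, less the median of all miRNAs, came to -1.59, and with TMM factors it was called at -1.87. The 5p arm held 0.341%, 0.578% and 0.388% of the hairpin's reads at E90, P30d and P7y. Its balance with the 3p arm moved by 0.75, -0.57 and 0.18 on the log2 scale in the steps from E90 to P30d, from P30d to P7y and from E90 to P7y, all under 2-fold, so the rise and fall of miR-22 concerned both strands.

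The representative read of miR-22-3p was the same 22 nt sequence in all libraries, 1 base longer at its 3′ end than the named bovine form. Its share of the arm's reads was 83.1%, 87.4% and 66.6% at E90, P30d and P7y, so the reads were most mixed at P7y. Short reads of 18 to 20 nt that carry the miR-22 name but were placed with other hairpins numbered 113, 69 and 119 at E90, P30d and P7y, at most 0.538% of the arm. No other miRNA was listed with the seed AGCTGCC.

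In a search of 172 miRNAs whose mean reached 100 CPM, the 3 whose centred log2 levels over the 3 libraries lay nearest to miR-22-3p were miR-203-3p, miR-142-5p and miR-26a-5p. miR-142-5p, a miRNA of blood-forming cells, was at 374 CPM at E90, 2956 at P30d, then 609 at P7y. miR-26a-5p was at 19843, 102238 and 25361 CPM, and miR-203-3p at 29.1, 235.7 and 39.7 CPM. miR-203-3p reached the mean of 100 CPM only through the P30d library. Its log2 ratios were 3.02 from E90 to P30d and -2.57 from P30d to P7y. The separate entry miR-203a-3p went the other way, at -8.07 and 8.66. Whether miR-203 reads were listed under different names in different libraries was not tested. The 5 leukocyte markers together were at 962, 3446 and 944 CPM, highest at P30d like miR-22-3p and miR-21-3p, and most of the P30d sum was miR-142-5p. The other arm of that hairpin, miR-142-3p, had no such peak, at 195.2, 189.9 and 104.7 CPM. From E90 to P30d, 2 of the 5 leukocyte markers were higher, 1 was lower and 2 were neither. Of all 317 miRNAs, 33.1% were higher and 34.1% lower in this step. miR-223-3p was at 296, 50.2 and 83.1 CPM, miR-155-5p at 90.3, 132.2 and 44.8 CPM and miR-150-5p at 5.95, 117.9 and 102.5 CPM. Of the 5 mesenchymal markers, 3 were higher, 1 was lower and 1 was neither from E90 to P30d, beside the same shares of all miRNAs. The mesenchymal list summed to 58769, 65597 and 113084 CPM. Its members miR-199a-5p, miR-199a-3p and miR-214-3p were highest at P30d, with miR-199a-5p at 3349, 40212 and 2539 CPM, while miR-143-3p and miR-145-5p were lowest there. The sums of the endothelial, erythroid and epithelial (biliary and other) lists were not highest at P30d. The endothelial sum was 13297, 11884 and 13568 CPM, the erythroid sum 6102, 2606 and 1420 CPM, and the epithelial sum 756.5, 358.3 and 222.9 CPM. The part of any of these cell types in the levels of miR-21 and miR-22 was not tested.

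The nearest patterns to miR-21-5p, likewise over 3 libraries, were those of miR-5097-3p, miR-215-5p and miR-192-5p, which all had nearly level profiles. miR-192-5p was at 109466, 109310 and 154836 CPM and miR-215-5p at 322.8, 324.9 and 330.9 CPM at E90, P30d and P7y. miR-5097-3p was at 125.8, 165.9 and 199.1 CPM.

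The miR-34 genes were rare in liver at every stage, and the leading one changed. All 6 arms together had 538 reads at E90, 154 at P30d, then 492 at P7y, or 58.2 (53.4 to 63.3), 42.5 (36.1 to 49.8) and 49.6 (45.3 to 54.2) CPM. The sum was highest at E90 and lowest at P30d, and the P7y interval overlapped the other 2. Within it, miR-34a-5p was the leading arm at E90 and P30d and miR-34c-5p at P7y.

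miR-34a-5p, the best known miRNA product of p53 activation, had 425 reads at E90, 131 at P30d, then 121 at P7y. Its level was 46.0 (41.7 to 50.6) CPM at E90, 36.2 (30.2 to 42.9) at P30d and 12.2 (10.1 to 14.6) at P7y. The E90 and P30d intervals overlapped slightly and P7y lay below both. The log2 ratio was -0.35 (-0.64 to -0.06) from E90 to P30d, not called, -1.57 (-1.94 to -1.20) from P30d to P7y and -1.91 (-2.22 to -1.62) from E90 to P7y, the last a 3.77-fold lower level. These falls were near the shift of all miRNAs: less the median, they came to -0.20 and -0.81. With TMM factors neither was called, at log2 ratios of -0.47 against P30d and -0.89 against E90. The nearest patterns were those of miR-19a-3p, miR-30e-5p and miR-107-3p, and miR-19a-3p was at 495.7, 303.3 and 103.7 CPM at E90, P30d and P7y.

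miR-34c-5p went the other way between P30d and P7y. It had 104 reads at E90, 16 at P30d, then 316 at P7y, or 11.3 (9.19 to 13.6), 4.42 (2.52 to 7.17) and 31.8 (28.4 to 35.6) CPM. The 3 intervals did not overlap: the level was lowest at P30d, on few reads, and highest at P7y. From E90 to P30d the log2 ratio was -1.35 (-2.21 to -0.58). From P30d to P7y it was 2.85 (2.13 to 3.68), a 7.21-fold higher level, and from E90 to P7y 1.50 (1.18 to 1.83), a 2.83-fold higher level. Both were called in the same direction with TMM factors, at 3.94 and 2.53.

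The proportion of these 2 arms, which share a seed and are read in the same library, is free of the scaling. miR-34c-5p made up 19.7% (16.4 to 23.3) of the summed miR-34a-5p and miR-34c-5p reads in the E90 library, 10.9% (6.35 to 17.1) at P30d and 72.3% (67.9 to 76.5) at P7y. The ratio of miR-34c-5p to miR-34a-5p rose 21.4-fold from P30d to P7y (log2 change 4.42, 3.59 to 5.32) and was 10.7-fold higher at P7y than at E90 (log2 change 3.42, 2.97 to 3.87). From E90 to P30d it changed by -1.003 (-1.91 to -0.17).

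The reads behind the P7y value were mixed. The representative read held 56.7% of miR-34c-5p reads at E90, 75% at P30d, then 21.5% at P7y, where it had 68 copies among 316 reads. For miR-34a-5p it held 57.4%, 52.8% and 34.7%. The median over 239 miRNAs was 57.1% at E90, 51.3% at P30d, then 52.2% at P7y, and 37.7% of them had their lowest share at P7y. Reads with a mismatch made up 11.5%, 6.25% and 22.5% of miR-34c-5p and 21.9%, 13.7% and 38.0% of miR-34a-5p at E90, P30d and P7y, against medians of 12.2%, 14.6% and 17.4%. Of the 239 miRNAs, 43.1% had their highest share of such reads at P7y. Over all miRNA reads the share was 18.6%, 13.9% and 21.7%. Counted by representative reads alone, miR-34c-5p had a log2 ratio of 0.15 (-0.37 to 0.68) from E90 to P7y, so its call ended, and 1.13 (0.23 to 2.15) from P30d to P7y. Its share beside miR-34a-5p on that count was 19.5% at E90, 15.2% (8.10 to 25.0) at P30d and 61.8% (52.1 to 70.9) at P7y. Without reads that had a mismatch the share was 21.7%, 11.7% and 76.6%.

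**Figure D3:**
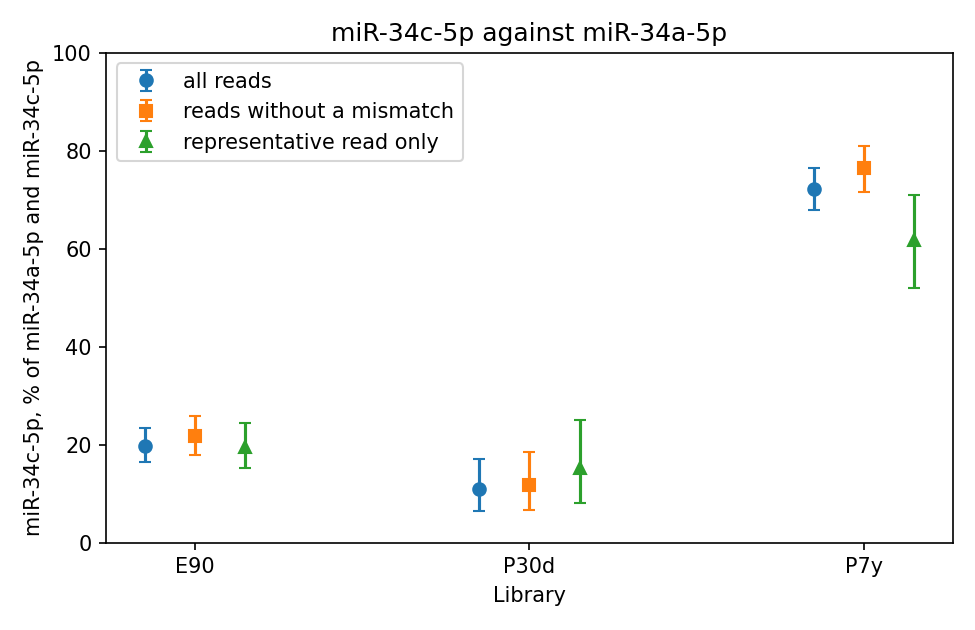
Share of miR-34c-5p in the summed reads of miR-34a-5p and miR-34c-5p in each library, in percent with exact 95% intervals, for all reads, for reads without a mismatch and for the representative reads only. The share lay between 10.9% and 21.7% at E90 and P30d and between 61.8% and 76.6% at P7y.

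miR-34b, the neighbour of miR-34c, was read at few counts throughout. Its 3p arm reached 3.63 (2.54 to 5.02) CPM at P7y, from 0.325 (0.0669 to 0.949) at E90 and 0.552 (0.0668 to 1.99) at P30d. The P7y interval lay above the other 2. On 3 and 36 reads, the ratio from E90 to P7y was 11.2-fold, with a log2 interval of 1.82 to 5.83, and on 2 and 36 reads from P30d it was 6.57-fold, with an interval of 0.76 to 5.82. The 36 reads at P7y held no mismatch. miR-34b-5p and miR-34c-3p had at most 7 reads in any library, and their intervals overlapped across stages. Of the relatives with the miR-34 seed, miR-449a-5p and miR-449b-5p had 1 read each, at P30d, and miR-449c-5p had none. The miR-449 genes mark cells with many cilia. All 3 had 0 reads in the P7y library, where the limit set at 3 reads was 0.302 CPM, and none passed the filter for a comparison. The part of such cells in the miR-34c-5p level was not tested.

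The 3p strand of miR-34a could not be followed. Its single read at P30d was 18 nt and its 7 reads at P7y were 16 nt, and all 8 reads carried a mismatch. The balance of arms of miR-34a was called from E90 to P7y, toward the 3p arm, and that call rested on those 7 reads.

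The 6 member arms were then set beside all compared miRNAs. Of these arms, miR-21-3p and miR-22-5p reached the mean of 10 CPM only through the P30d library, and miR-34c-5p only through the P7y library. Their calls there follow in part from that filter, so the counts are a description. From E90 to P30d, 3 were higher (miR-21-3p, miR-22-3p and miR-22-5p), beside 33.1% of all 317, and 1 was lower (miR-34c-5p), beside 34.1%. The median log2 ratio of the 6 was 1.50 and that of all 317 was -0.06. From P30d to P7y, 1 was higher (miR-34c-5p), beside 12.6%, and 4 were lower (miR-21-3p, miR-22-3p, miR-22-5p and miR-34a-5p), beside 56.2%. The medians were -1.97 and -1.37. From E90 to P7y, 1 was higher (miR-34c-5p), beside 12.0%, and 1 was lower (miR-34a-5p), beside 51.1%, with medians of 0.47 and -1.10. With TMM factors 27.1% of all miRNAs were higher and 34.7% lower from P30d to P7y, and 27.1% and 33.4% from E90 to P7y. On that scale 2 member arms were higher and 3 lower from P30d to P7y, and from E90 to P7y 5 were higher and 0 lower. At a mean of 100 CPM, miR-21-5p and miR-22-3p alone were left, of which miR-22-3p was higher from E90 to P30d and lower from P30d to P7y. The pairs share libraries, so these counts are not independent of each other.

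**Figure D4:**
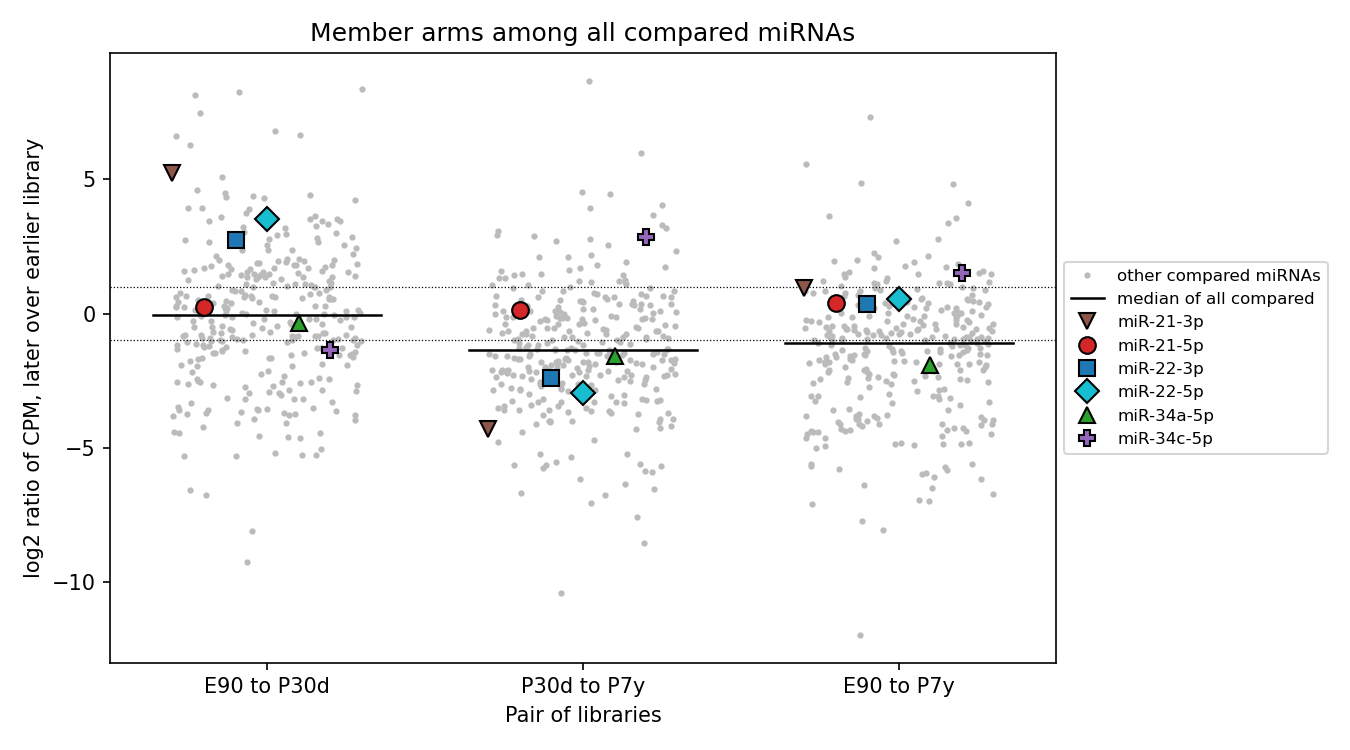
Log2 ratio of CPM, later over earlier library, of the 6 member arms and of the other compared miRNAs in each pair of libraries. Bars mark the median of all 317, at -0.06, -1.37 and -1.10, and dotted lines the 2-fold limit, and the miR-34c-5p mark lies above the upper line in both pairs that end at P7y.

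Other miRNAs linked to p53 or to ageing cells, listed from the literature, moved in different directions. Of 9 p53-linked miRNAs, 8 were compared. From E90 to P30d, 1 was higher and 1 lower, beside 33.1% and 34.1% of all miRNAs. From P30d to P7y, 2 were higher and 3 lower, beside 12.6% and 56.2%. From E90 to P7y, 2 were higher and 3 lower, beside 12.0% and 51.1%. Their median log2 ratios were -0.22, 0.05 and -0.42, against -0.06, -1.37 and -1.10 over all miRNAs. The list shares miR-192-5p and miR-194a-5p with the hepatocyte markers, and miR-143-3p and miR-145-5p with the mesenchymal ones. miR-143-3p, a smooth muscle miRNA on this list, was at 51123 CPM at E90, 17730 at P30d, then 102623 at P7y, lowest at P30d like miR-34c-5p. miR-16-5p was highest there, at 2207, 8716 and 888 CPM in the E90, P30d and P7y libraries. miR-194a-5p, from the miR-192 family, was at 27936, 14577 and 15262 CPM, with log2 ratios of -0.94 from E90 to P30d and 0.07 from P30d to P7y. It was taken for miR-194-5p as the name with most reads. The separate entry miR-194-5p had ratios of 0.86 and -1.19 in these steps and was not counted in the lists.

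Of 9 miRNAs reported as raised in senescent or ageing cells, 8 were compared: 5 were higher and 1 lower from E90 to P30d (median log2 ratio 1.36), none was higher and 5 were lower from P30d to P7y (median -1.26), and 2 were higher and 2 lower from E90 to P7y (median -0.12). Over all 317 miRNAs, 33.1% were higher and 34.1% lower from E90 to P30d, and 12.6% and 56.2% from P30d to P7y. From E90 to P7y 12.0% were higher and 51.1% lower. The medians of all were -0.06, -1.37 and -1.10. The count lower and the median from P30d to P7y thus lay near those of all miRNAs. On this list miR-29c-3p (5.52, 24.6 and 0 CPM) reached the mean of 10 CPM only through the P30d library. miR-210-3p (80.8, 8.28 and 4.03 CPM) reached it only through the E90 library. The calls of both follow in part from that filter. From P30d to P7y the entry miR-29d-3p had a log2 ratio of 5.97, and a change of names between libraries was not tested. miR-146a-5p, a brake on inflammatory signalling, peaked at P30d as miR-22 did, at 56.8, 1151 and 169.3 CPM at E90, P30d and P7y. miR-29a-3p, which represses collagen messages, was at 1311, 2059 and 2815 CPM. miR-24-3p was at 2486, 6333 and 2254 CPM and miR-181a-5p at 1255, 3728 and 1007 CPM.

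All 3 compared miRNAs of the list reported as lowered in ageing cells, miR-17-5p, miR-19b-3p and miR-20a-5p of the growth-promoting miR-17 cluster, were lower at P30d than at E90 and lower at P7y than at E90, with median log2 ratios of -2.65 and -3.08. Among all miRNAs, 34.1% and 51.1% were lower in these pairs, with medians of -0.06 and -1.10. From P30d to P7y 1 was higher, 1 lower and 1 neither, where 12.6% of all miRNAs were higher and 56.2% lower. miR-20a-5p was at 13856 CPM at E90, 592 at P30d, then 1636 at P7y. miR-106a-5p, the other name on this list, shared its representative read with miR-17-5p and was counted with it.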

How the data were processed

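Small RNA of 14 to 40 nt was sequenced, per the labels' protocols, in 1 liver library per stage. The authors mapped reads to miRBase hairpins of pig and other mammals, per the file headers, and deposited expected counts per arm, in which reads shared by several hairpins are split between these. Copies of each representative read were deposited as counts. Coordinates are on Sscrofa10.2, per the submitters' processing notes. The aligner, miRBase release and trimming were not given in the sources used here.

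Expected counts were summed over copies and rounded. CPM used the total of named miRNAs, and predicted hairpins were left out. Among 974 names, 8 were joined to another name that had an identical representative read (18 nt or longer, over 50% of the reads under both names), a rule chosen after the tables were seen. The arm was taken from the position of the named sequence in its hairpin. Log2 ratios have exact conditional binomial 95% intervals, and a call needs 2-fold and an interval off 0. Shares have exact Clopper-Pearson intervals. Arm balances used 0.5 added reads and exact conditional odds-ratio intervals, except a normal interval for hairpins with over 1000 reads in every arm and library, none of them a member. With 1 library per stage no p-values are given. The miRNAs planned to be named were every member arm, their seed relatives, the 3 nearest patterns by Euclidean distance (mean of at least 100 CPM), and up to 4 of each list by mean CPM. Further list members and entries were also named, outside that plan, where a limit or a whole list was described. The members and lists were chosen with earlier results of these data known.

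The alternatives were TMM (edgeR 4.0.16) and DESeq2 1.42.0 factors, totals that leave out the 5 top miRNAs of each library or include predicted hairpins, reads without a mismatch, representative reads, unmerged names, pig names only, other filters, and at least 200 reads per hairpin. On simulated data for 317 miRNAs, the tested comparison recovered 100% of 3-fold and 8-fold changes and called 0% of unchanged miRNAs in each pair. The simulation holds counting error only. Python 3.11.15, SciPy 1.17.1, R 4.3.3 and matplotlib 3.10.9 were used.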

Additional observations from a re-analysis of the deposited data

How the results depend on the processing

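Of 144 log2 ratios recomputed under 8 alternatives, 125 kept their direction and their side of the 2-fold limit, 6 lost a call, 13 gained one and none changed direction. TMM and DESeq2 factors moved the median of all miRNAs by 1.09 and 1.04 from P30d to P7y, and by 1.03 and 1.09 from E90 to P7y. With them, in that order, miR-34a-5p was no longer called from P30d to P7y (-0.47, -0.53) or from E90 to P7y (-0.89, -0.83), and miR-21-5p was called from P30d to P7y (1.22, 1.17). From E90 to P7y they called miR-21-5p (1.41, 1.47), miR-21-3p (1.97, 2.03), miR-22-3p (1.39, 1.45) and miR-22-5p (1.57, 1.64). A total without the most abundant miRNAs called miR-21-3p from E90 to P7y (1.27). Representative reads alone ended the calls of miR-34c-5p from E90 to P30d (-0.98) and from E90 to P7y (0.15), and called miR-21-3p (1.27), miR-22-5p (1.02) and the arm balance of miR-21 (-1.06) from E90 to P7y. The uncalled arm balance of miR-22 from P30d to P7y changed sign with them (0.52). The miR-34c-5p share at P7y was 76.6% without mismatched reads and 61.8% by representative reads, alternatives chosen after seeing the data.

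Counts of member arms moved accordingly. With no filter 10 member arms were counted, at 100 CPM 2, and otherwise 6. The share of all miRNAs is given in brackets. From E90 to P7y, the number higher was 5 with TMM factors (27.1%) or DESeq2 factors (28.1%). It was 2 without the most abundant miRNAs (16.4%) or by representative reads (13.25%), 3 with no filter (8.90%) and 0 at 100 CPM (12.1%). The number lower was 0 with TMM factors (33.4%), with DESeq2 factors (33.1%) and at 100 CPM (46.0%). From P30d to P7y, 2 were higher with TMM factors (27.1%), DESeq2 factors (27.1%) or no filter (6.52%), and 0 at 100 CPM (15.5%). At 100 CPM 1 was lower (52.9%). From E90 to P30d, 1 was higher at 100 CPM (33.3%), and 0 were lower there (31.0%) and by representative reads (36.9%). The filter at 100 CPM leaves fewer members to count. The cause of the other changes was not tested. No paired analysis was possible because each stage has 1 library. Depth limits miR-34c-5p at P30d (16 reads) and all of miR-34b.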
